A study of Mus musculus with 9 samples.

Results

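The transcripts of the epithelial sodium channel ENaC, of the chloride channel CFTR and of 3 regulators of ENaC were measured in the mouse uterus: *Scnn1a*, *Scnn1b*, *Scnn1g*, *Cftr*, *Sgk1*, *Prss8* and *Nedd4l*. They were chosen by symbol, and all 7 were found among the 31274 entries of the deposited expression table. RNA-Seq was carried out on whole uterus of C57BL/6 mice on day 4.5 of pseudopregnancy, the receptive phase, which was induced by mating virgin females to vasectomized males so that no embryo was present. The 4 control mice carried floxed *Wnk1* alleles (Wnk1f/f), and the 5 mutant mice (Wnk1d/d) carried the same floxed alleles together with a *Cre* driven by the progesterone receptor gene, which removes exon 2 of *Wnk1*. Each mouse gave 1 library. Cells without progesterone receptor, such as endothelial and immune cells, keep *Wnk1* in this model, and the *Cre* is also active in ovary and pituitary.

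ENaC and CFTR are the apical channels that set the volume of fluid in the uterine lumen. ENaC is built of an α, a β and a γ subunit (*Scnn1a*, *Scnn1b* and *Scnn1g*) and absorbs sodium, and water follows. CFTR is a cAMP-gated channel that lets chloride and bicarbonate out, and water follows them into the lumen. Prostasin (*Prss8*) is a membrane-bound serine protease that activates ENaC, NEDD4-2 (*Nedd4l*) is a ubiquitin ligase that removes ENaC from the membrane, and the steroid-induced kinase SGK1 (*Sgk1*) phosphorylates NEDD4-2 and so keeps ENaC at the surface. In rodents the channels are under ovarian steroid control: estrogen favours CFTR and secretion, and the closing of the lumen before implantation goes with absorption through ENaC. The WNK kinases, of which WNK1 is one, regulate sodium and chloride transport in kidney, and whether channel transcripts differ without uterine WNK1 is the question of the comparison.

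Levels are given as FPKM, the deposited unit, in which fragments are counted relative to transcript length and to the size of the library. SE is the standard error of a log2 fold change. Genotypes were compared on log2(FPKM + 1) with limma over the 14728 genes with a mean above 1 FPKM in at least 1 genotype, and a gene passed at a Benjamini-Hochberg adjusted p under 0.05. Of all genes tested, 22.1% passed, 11.1% with higher values in Wnk1d/d uteri, and 10.3% also differed at least 1.5 times in mean FPKM. *Wnk1* itself was lower in all Wnk1d/d libraries, with 29.9 to 33.9 FPKM against 43.4 to 47.3 FPKM in Wnk1f/f libraries. The median log2 value of the tested genes was 3.79 to 3.82 in the 9 libraries. Wnk1f/f replicate 4 held liver transcripts, with 77.7 FPKM of *Alb* against at most 1.5 FPKM elsewhere, and in Wnk1d/d replicate 4 a single entry made up 70.3% of the summed FPKM. The depth of the libraries is not stated in the sources used here.

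Cell type markers moved between the genotypes, and the members were read beside them. Of 10 epithelial markers, *Krt7*, *Cldn7* and *Elf3* passed with higher values and 7 did not pass (*Elf3* alone passed with quantile normalization), and the summed level was 1136 to 1693 FPKM in Wnk1f/f and 1290 to 1959 FPKM in Wnk1d/d libraries. All 6 smooth muscle markers rose (4 of them passed with quantile normalization, summed level 1879 to 4270 FPKM in Wnk1f/f and 5243 to 9539 FPKM in Wnk1d/d libraries), all 5 endothelial markers fell (253 to 276 FPKM and 97.1 to 207 FPKM), and of 6 stromal markers 5 fell and *Col1a1* rose (1722 to 1863 FPKM and 1431 to 1900 FPKM). Of 5 gland markers, *Prss28*, *Prss29* and *Spink3* fell and *Foxa2* and *Cxcl15* did not pass (6586 to 10393 FPKM and 815 to 2716 FPKM). Mean levels were 5.83 and 6.78 FPKM for *Foxa2* and 1.46 and 2.64 FPKM for *Cxcl15*. The summed gland level therefore follows the abundant genes that fell and does not measure the amount of gland. By separate assays, the paper reports epithelial hyperplasia, more glands and higher *Foxa2* in Wnk1d/d uteri. None of the 4 leukocyte markers, the 5 liver markers and the 3 red cell markers tested passed, and at an unadjusted p under 0.05 the counts were 0, 1 and 0 by limma. Their summed levels were 38.8 to 75.2 FPKM and 31.7 to 55.3 FPKM for leukocytes, 6.20 to 120 FPKM and 8.03 to 26.0 FPKM for liver, and 83.6 to 171 FPKM and 67.2 to 303 FPKM for red cells. No marker of epithelium, gland, stroma, muscle or endothelium was at 0 in any library, and only the liver genes *Apoa1* and *Fgb* were. In RNA of a whole organ, a change in the share of a cell type and a change in RNA per cell cannot be told apart.

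The 7 transcripts spanned more than 2 orders of magnitude on the FPKM scale, which is corrected for length and so allows levels of different genes to be set side by side. In Wnk1f/f uteri the order of the means was *Prss8*, *Sgk1*, *Nedd4l*, *Scnn1b*, *Scnn1a*, *Cftr* and *Scnn1g*. Ranges of neighbours overlapped for *Sgk1* and *Nedd4l* and for *Scnn1b* and *Scnn1a*, yet *Sgk1* was above *Nedd4l* and *Scnn1b* above *Scnn1a* within each of the 9 libraries. *Scnn1a* was above *Cftr* in 4 of 4 Wnk1f/f libraries and in 2 of 5 Wnk1d/d libraries, so the order of these neighbours turned in 3 Wnk1d/d mice. *Prss8* was above *Sgk1* in every library except Wnk1d/d replicate 4.

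**Figure D1:**
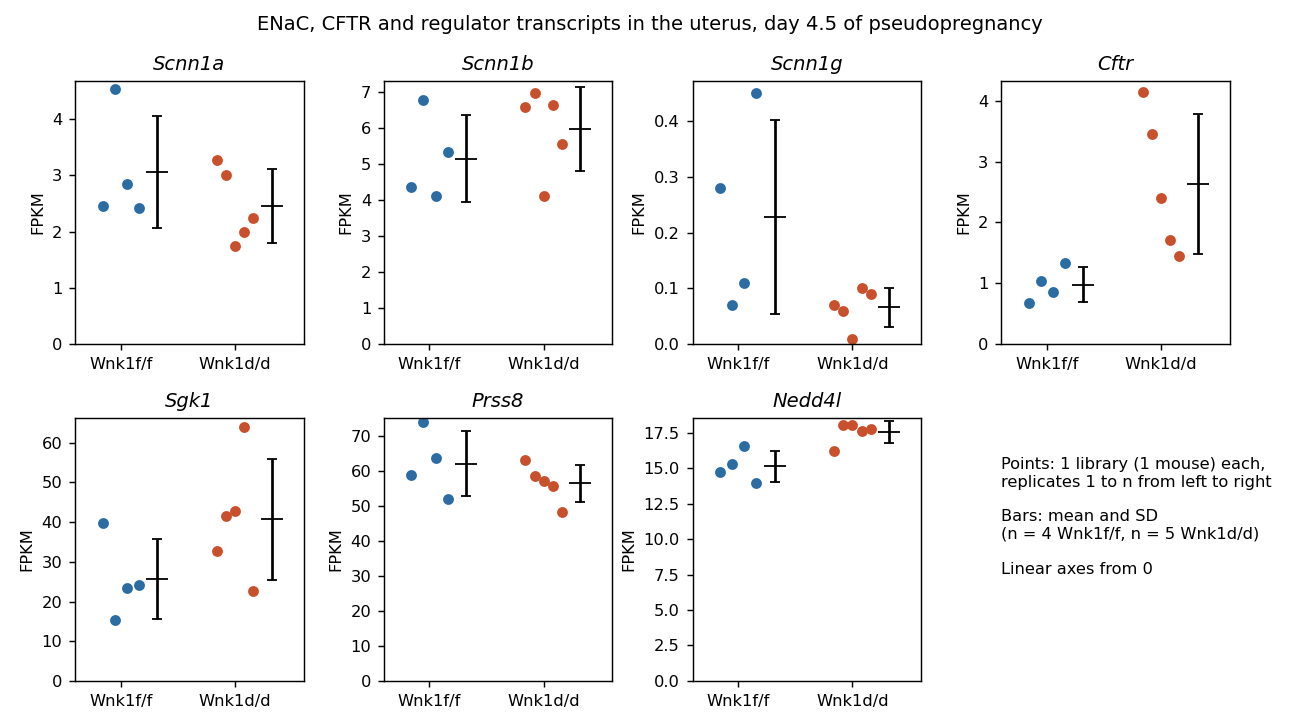
FPKM of the 7 genes in each library (vertical axes, linear and starting at 0), with points for single mice and bars for the mean and SD of 4 Wnk1f/f and 5 Wnk1d/d libraries. All 5 Wnk1d/d values of *Cftr* lie above the highest Wnk1f/f value of 1.34 FPKM, while the genotypes overlap for the other 6 genes.

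No ENaC subunit passed the test. *Scnn1a* (chromosome 6, 125320659 to 125344943, plus strand, mm10, GENCODE release M21), the α subunit that the channel needs to conduct, had 2.45, 4.54, 2.84 and 2.43 FPKM in Wnk1f/f replicates 1 to 4 and 3.27, 3.01, 1.75, 2 and 2.24 FPKM in Wnk1d/d replicates 1 to 5. The genotypes overlapped, with 3 Wnk1d/d libraries below all controls and Wnk1f/f replicate 2 above all others. The log2 fold change was -0.23 (95% interval -0.63 to 0.18, limma adjusted p = 0.38, exact two-sided permutation p = 0.30). *Scnn1b* (chromosome 7, 121865038 to 121918514, plus strand), the β subunit, had 4.35, 6.77, 4.11 and 5.34 FPKM in Wnk1f/f and 6.59, 6.96, 4.10, 6.65 and 5.55 FPKM in Wnk1d/d libraries, and each genotype held both high and low values. Its log2 fold change was 0.18 (95% interval -0.18 to 0.55, limma adjusted p = 0.43, exact permutation p = 0.36). The gene *Cog7* lies across *Scnn1b* on the other strand, with 0 shared exonic bases.

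*Scnn1g* (chromosome 7, 121734479 to 121768475, plus strand), the γ subunit, lies 96562 bases from *Scnn1b* on the same strand and was scarce. It had 0.28, 0.07, 0.11 and 0.45 FPKM in Wnk1f/f and 0.07, 0.06, 0.01, 0.10 and 0.09 FPKM in Wnk1d/d libraries. Wnk1f/f replicates 1 and 4 stood above the rest, the other Wnk1f/f libraries lay within or close to the Wnk1d/d range, and the lowest value equals the last decimal of the table. The mean was under 1 FPKM in both genotypes, so the gene was not among those tested. In a fit over all entries without this filter its log2 fold change was -0.19 (95% interval -0.40 to 0.01, limma adjusted p = 0.26, exact permutation p = 0.040).

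Summed over the 3 subunits, ENaC transcripts were at 8.44 ± 2.04 FPKM (SD, n = 4) in Wnk1f/f and 8.49 ± 1.72 FPKM (SD, n = 5) in Wnk1d/d uteri. The share of *Scnn1b* in this sum was 58.2% to 65.0% in Wnk1f/f and 66.4% to 76.0% in Wnk1d/d libraries, without overlap. *Scnn1a* held 29.6% to 40.2% and 22.9% to 32.9%, and *Scnn1g* at most 5.47% in any library. The ratio of *Scnn1b* to *Scnn1a* was 1.73 ± 0.345 (SD, n = 4) in Wnk1f/f and 2.49 ± 0.494 (SD, n = 5) in Wnk1d/d uteri, above the highest control in 4 of 5 Wnk1d/d libraries. These shares are a description and were not tested. How often such shares separate the genotypes was not worked out, and nothing is read from the separation.

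*Cftr* rose. The gene spans 152082 bases of chromosome 6 (18170687 to 18322768, plus strand) and its transcript was at 0.68, 1.04, 0.86 and 1.34 FPKM in Wnk1f/f replicates 1 to 4 and at 4.15, 3.45, 2.41, 1.71 and 1.45 FPKM in Wnk1d/d replicates 1 to 5. Every Wnk1d/d library was above every control, by a wide margin in replicates 1 and 2 and narrowly in replicate 5. Genes without overlap and with higher values in Wnk1d/d made up 9.27% of all tested. The means were 0.980 ± 0.281 FPKM (SD, n = 4) and 2.63 ± 1.15 FPKM (SD, n = 5), a ratio of 2.69. The log2 fold change was 0.83 (SE 0.22, 95% interval 0.33 to 1.33, adjusted p = 0.029 by limma, exact permutation p = 0.016, where 4 against 5 libraries allow no p under 0.0079). It was 1.27 with a pseudocount of 0.1, since adding 1 FPKM shrinks the change of a gene this low.

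*Cftr* entered the test through its Wnk1d/d mean alone, because the control mean was just under 1 FPKM, and a gene that enters so had to differ. With a filter on the mean of all 9 libraries, chosen after seeing the data, the adjusted p was 0.029, and without any filter it was 0.088. The call was lost without Wnk1f/f replicate 1, 2 or 3 (limma adjusted p = 0.070, 0.055 and 0.060) or Wnk1d/d replicate 3 (0.062), and it held without the liver-containing Wnk1f/f replicate 4 (0.046). An antisense transcript, *Gm15592*, shares 129 exonic bases with *Cftr*, and counting is not stated to use strand.

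The promoter of *Cftr* is shown because, of the members that passed, it alone differed at least 1.5 times in mean FPKM. The sequence is from the set of RefSeq promoters used here (GRCm38.p6), which holds 4 of the 7 genes. The sequence covers chr6:18170437-18170736 on the plus strand, from 250 bases before to 50 bases after the start. Motifs found would be in capitals.
Cftr promoter: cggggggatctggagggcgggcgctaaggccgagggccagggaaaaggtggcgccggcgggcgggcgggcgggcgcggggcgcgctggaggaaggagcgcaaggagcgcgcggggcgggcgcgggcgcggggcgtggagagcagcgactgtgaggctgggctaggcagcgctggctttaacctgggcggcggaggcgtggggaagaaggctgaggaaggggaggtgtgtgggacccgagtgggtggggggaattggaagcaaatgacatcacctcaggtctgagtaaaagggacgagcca
It is rich in G and C (71.3%, with 31 CpG, against medians of 52.7% and 7 over 32851 promoter windows). The motifs searched on both strands were the steroid receptor element (GNACA and TGTNC with 3 bases between), the single arm AGAACA of that element, the estrogen response element (GGTCA and TGACC with 3 bases between) and the cAMP response element TGACGTCA. These letters occur in 0.475%, 19.0%, 0.0700% and 1.79% of all windows, and the *Cftr* window holds no exact match to any of them. Near matches were not counted, such as the tgacatca in this window beside the TGACGTCA searched, so a variant site is not excluded. The windows of *Scnn1b* and *Scnn1g* hold none either.

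The *Cftr* transcript was then set against the ENaC transcripts within each library, as the log2 ratio of *Cftr* to the mean of the ENaC subunits after adding 1 FPKM to both. The ratio was -1, -1.23, -0.85 and -0.68 in Wnk1f/f replicates 1 to 4 and 0.26, 0.04, 0.21, -0.53 and -0.57 in Wnk1d/d replicates 1 to 5. All Wnk1d/d libraries were higher than all controls, and replicates 1 to 3 were above 0, meaning that *Cftr* exceeded the mean ENaC subunit. That mean includes the scarce *Scnn1g*, which lowers it. In replicates 1 to 3 *Cftr* was above *Scnn1a*, and in every library of both genotypes it was below *Scnn1b*. Per FPKM of summed ENaC transcripts, *Cftr* was at 0.118 ± 0.0328 (SD, n = 4) in Wnk1f/f and 0.311 ± 0.114 (SD, n = 5) in Wnk1d/d uteri. The mean ENaC sums differed by 0.055 FPKM, less than their SDs, so the ratio mostly restates the *Cftr* difference and shares its limits. The ratio is a description of transcripts and carries no p, and channel activity was not measured.

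**Figure D2:**
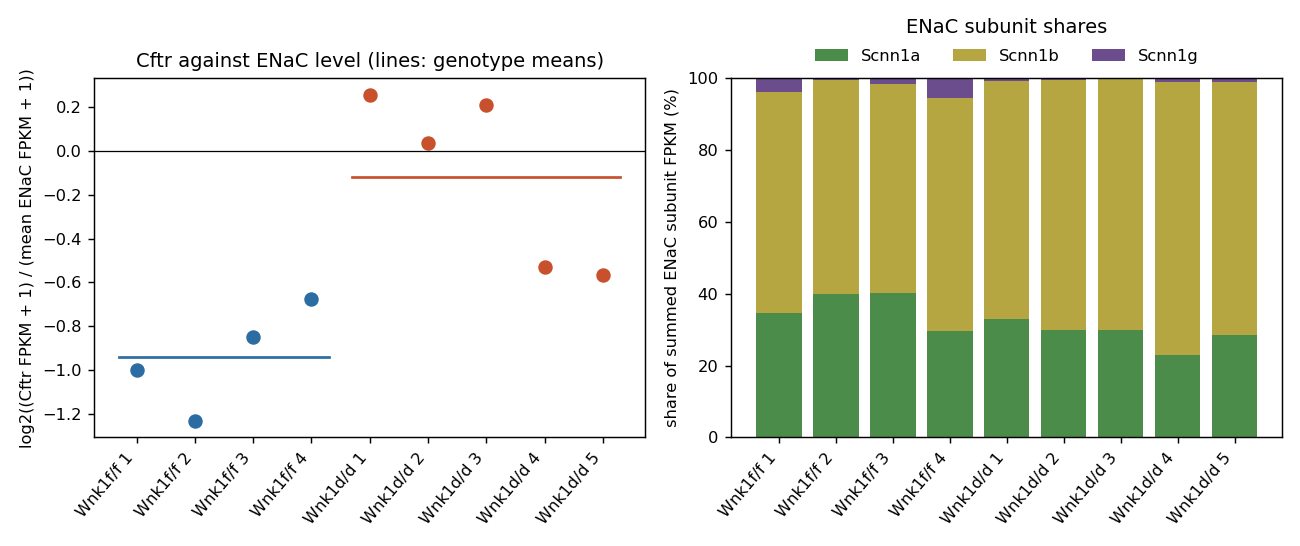
Left, log2 ratio of *Cftr* to the mean of the 3 ENaC subunits in each library (FPKM + 1), with lines at the genotype means. Right, share of each subunit in the summed ENaC FPKM of the library. Ratios run from -1.23 to -0.68 in Wnk1f/f and from -0.57 to 0.26 in Wnk1d/d libraries, and the share of *Scnn1b* is larger in each Wnk1d/d library than in any control. Neither the ratios nor the shares were tested.

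The 3 libraries with most *Cftr* were also those with the highest epithelial marker mean. Among the Wnk1d/d libraries, the mean log2(FPKM + 1) of the 10 epithelial markers was 7.25, 6.93, 6.91, 6.57 and 6.50 in replicates 1 to 5, the same order as for *Cftr*, and in Wnk1f/f libraries it was 6.25, 6.83, 6.47 and 6.30. *Krt7*, a keratin of simple epithelia, had 108, 98.5, 69.1 and 141 FPKM in Wnk1f/f and 249, 244, 208, 144 and 120 FPKM in Wnk1d/d libraries (Pearson r with *Cftr* 0.92 over the 9 libraries and 0.83 after centring on genotype means, as a description). Over the libraries this was the highest r of the 10 epithelial markers, and the lowest was that of *Cldn3* (0.14, and -0.07 after centring). The keratins *Krt8*, *Krt18* and *Krt19* did not pass, with *Krt18* at 365 ± 66.5 FPKM (SD, n = 4) and 347 ± 46.9 FPKM (SD, n = 5). Measured relative to the epithelial marker mean of the same library, *Cftr* differed by 0.46 on the log2 scale (limma adjusted p = 0.21). This scaling takes the marker difference of 0.37 from the change of every gene, and the median of all genes moved to -0.36. Relative to the marker mean, 2 of 5 Wnk1d/d libraries were above all controls. In the same libraries the smooth muscle markers were higher and the endothelial and stromal markers mostly lower, and their part in the *Cftr* difference was not tested.

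**Figure D3:**
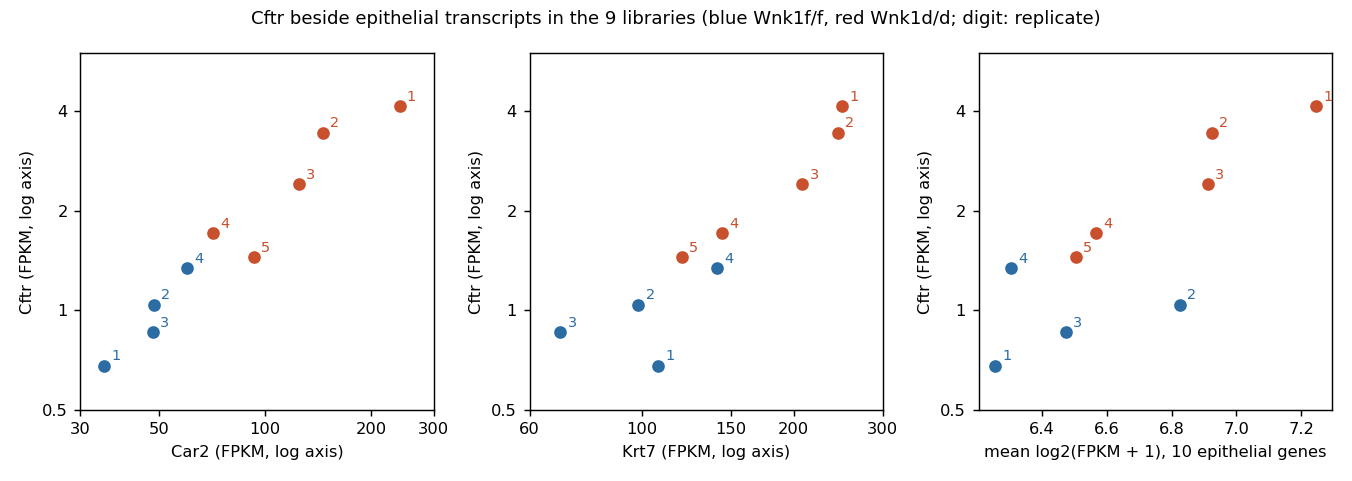
*Cftr* FPKM (log axis) against *Car2*, *Krt7* (log axes) and the mean log2(FPKM + 1) of 10 epithelial markers in the 9 libraries, blue for Wnk1f/f and red for Wnk1d/d, with the replicate number beside each point. Wnk1d/d replicates 1 to 3 sit at the top right of all 3 panels, and Wnk1f/f replicate 2 has a high epithelial mean of 6.83 with a *Cftr* of 1.04 FPKM.

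*Prss8* (chromosome 7, 127925716 to 127930104, minus strand), the ENaC-activating protease, was the most abundant of the 7 genes and did not pass. It had 58.9, 73.9, 63.7 and 51.8 FPKM in Wnk1f/f and 63.0, 58.5, 57.0, 55.6 and 48.4 FPKM in Wnk1d/d libraries, so 4 of 5 Wnk1d/d values lay within the control range. The log2 fold change was -0.13 (95% interval -0.37 to 0.12, limma adjusted p = 0.41, exact permutation p = 0.30). It shares 122 exonic bases with *Kat8* on the other strand, which had 19.5 and 16.8 FPKM on average. Of the 9 ENaC proteases and protease inhibitors tested (*Prss8*, the transmembrane proteases *St14*, *Tmprss2* and *Tmprss4*, the convertase *Furin*, *Prss22* and the inhibitors *Spint1*, *Spint2* and *Serpine2*), 0 passed by limma, and 2 had an unadjusted p under 0.05. Their median log2 fold change was 0.11, against 0.00 for all genes, and it was -0.02 with quantile normalization. Of all genes tested, 22.1% passed.

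*Sgk1* (chromosome 10, 21882184 to 21999903, plus strand) varied widely among the mice of both genotypes and did not pass. Its values were 39.7, 15.45, 23.4 and 24.2 FPKM in Wnk1f/f and 32.8, 41.5, 42.7, 63.9 and 22.8 FPKM in Wnk1d/d libraries. In Wnk1d/d mice 3 libraries were above all controls, but Wnk1f/f replicate 1 was as high as the middle of the Wnk1d/d range and Wnk1d/d replicate 5 was among the low ones. The means were 25.7 ± 10.14 FPKM (SD, n = 4) and 40.7 ± 15.2 FPKM (SD, n = 5), with a log2 fold change of 0.64 (95% interval -0.05 to 1.33, limma adjusted p = 0.16, exact permutation p = 0.10). The interval includes both no change and more than a doubling.

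The set of RefSeq promoters used here holds 6 start sites for *Sgk1*, and FPKM of the gene does not tell them apart. The window of one of them, chr10:21993640-21993939 on the plus strand (GRCm38.p6), is shown because it alone among the 9 windows of the members holds a full steroid receptor element, the class of site through which glucocorticoid, mineralocorticoid and progesterone receptors act. Capitals mark the element and the single arms AGAACA or TGTTCT (the same arm on the other strand), of which the 2 nearest to the start overlap the element.
Sgk1 promoter: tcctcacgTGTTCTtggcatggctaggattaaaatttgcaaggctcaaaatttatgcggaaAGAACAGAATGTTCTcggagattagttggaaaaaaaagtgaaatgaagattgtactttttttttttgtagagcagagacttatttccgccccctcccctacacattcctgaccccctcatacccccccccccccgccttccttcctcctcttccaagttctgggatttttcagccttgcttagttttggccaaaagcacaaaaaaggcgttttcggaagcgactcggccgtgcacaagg
The element, GAACAGAATGTTC, begins at position -188 relative to the start, and such a match occurs in 0.475% of all windows. A single arm also occurs in the windows that begin at 21881934 and 21991973. A match describes letters and is not evidence of binding.

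*Nedd4l* (chromosome 18, 64887705 to 65217828, plus strand) was slightly higher in Wnk1d/d uteri. It had 14.7, 15.3, 16.55 and 14.0 FPKM in Wnk1f/f and 16.2, 18.1, 18.1, 17.7 and 17.8 FPKM in Wnk1d/d libraries. All Wnk1d/d libraries but replicate 1 were above all controls, and the spread within genotypes was small, at 15.2 ± 1.08 FPKM (SD, n = 4) and 17.6 ± 0.786 FPKM (SD, n = 5). The log2 fold change was 0.20 (SE 0.06, 95% interval 0.06 to 0.35, adjusted p = 0.049 by limma, exact permutation p = 0.024). In mean FPKM the ratio was 1.16. When libraries were left out singly, the adjusted p was above 0.05 in 7 of 9 fits, all except those without Wnk1f/f replicate 3 or Wnk1d/d replicate 1, and its range was 0.035 to 0.13. The antisense gene *A330084C13Rik* shares 277 exonic bases with *Nedd4l*. With *Cftr*, *Nedd4l* makes 2 of the 6 members tested that passed, where 22.1% of all genes did, and *Cftr* alone also differed at least 1.5 times, where 10.3% of all genes did. *Cftr* entered the test through its high group, and nothing is read from the count.

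The other kinases, ubiquitin ligases and trafficking factors of ENaC were looked at as a list, of which 11 of 12 were tested. With *Nedd4l*, 3 rose and 3 fell, 5 did not pass, and the median log2 fold change was -0.03. Of all genes tested, 22.1% passed. The share of all genes with lower values and no overlap is not given here, and nothing is read from such separation. The clearest changes were in *Tsc22d3* and *Usp2*. *Tsc22d3*, which encodes the glucocorticoid-induced leucine zipper GILZ, had 146, 149, 116 and 110 FPKM in Wnk1f/f and 81.2, 80.4, 67.5, 73.35 and 54.8 FPKM in Wnk1d/d libraries, all below the controls (log2 fold change -0.86, SE 0.14, adjusted p = 0.0055 by limma). *Usp2*, a deubiquitinase that can reverse the action of NEDD4-2 on ENaC, had 20.2, 18.65, 16.5 and 16.1 FPKM in Wnk1f/f and 9.86, 10.18, 9.08, 10.85 and 8.85 FPKM in Wnk1d/d libraries, again without overlap (log2 fold change -0.81, SE 0.09, adjusted p = 0.0015 by limma). Both kept their call in all 9 fits that left out a library. The remaining calls, named after their values were seen, were small, with *Usp10* (ratio 1.23) and *Ndfip2* (1.16) higher and *Sgk3* (0.748) lower, and each lost its call in at least 4 of those fits. *Sgk2* was near 0, at no more than 0.07 FPKM in any library.

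The receptors tested of steroids that act on these genes did not pass. *Nr3c1*, the glucocorticoid receptor, had 9.96 ± 1.32 FPKM (SD, n = 4) and 9.79 ± 0.779 FPKM (SD, n = 5). *Nr3c2*, the mineralocorticoid receptor, was under 1 FPKM in all libraries and was not among the genes tested by limma, with 0.58, 0.50, 0.51 and 0.90 FPKM in Wnk1f/f and 0.35, 0.53, 0.35, 0.23 and 0.38 FPKM in Wnk1d/d libraries. In 4 of 5 Wnk1d/d libraries *Nr3c2* was below all controls (exact permutation p = 0.032). *Pgr* and *Esr1*, the progesterone and estrogen receptors, had limma adjusted p = 0.66 and 0.13. *Hsd11b2*, which inactivates glucocorticoids and so leaves the mineralocorticoid receptor to aldosterone, was at 243 ± 23.3 FPKM (SD, n = 4) and 339 ± 61.5 FPKM (SD, n = 5) (ratio 1.40, limma adjusted p = 0.048). Of the 4 tested genes of this list it alone passed, it was named after its values were seen, and its adjusted p was above 0.05 in 8 of 9 fits that left out a library and with quantile normalization (0.14).

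Around *Cftr*, genes that load or exchange chloride and bicarbonate changed in both directions. Of the 12 tested, *Cftr*, *Slc26a9*, *Car2* and *Car12* rose, *Ano1* and *Slc4a4* fell and 6 did not pass, and the 6 that passed all differed at least 1.5 times. Of all genes, 22.1% passed and 10.3% also differed at least 1.5 times. Of the list genes that passed, *Cftr* and *Slc26a9* entered the test through their high group, so nothing is read from the count. The median log2 fold change of the list was 0.34. *Car2*, a cytosolic carbonic anhydrase that makes bicarbonate, had 35.0, 48.3, 48.1 and 60.3 FPKM in Wnk1f/f and 240, 146, 125, 71.35 and 93.2 FPKM in Wnk1d/d libraries, with no overlap and the highest values in the libraries highest in *Cftr* (log2 fold change 1.38, SE 0.31, adjusted p = 0.016 by limma). *Slc26a9*, a chloride transporter that works with CFTR in airway and stomach, was at 0.81, 0.24, 0.52 and 0.96 FPKM in Wnk1f/f and at 3.15, 2.92, 3.60, 1.34 and 1.13 FPKM in Wnk1d/d libraries (log2 fold change 1.02, SE 0.26, adjusted p = 0.023 by limma). Like *Cftr* it had a control mean under 1 FPKM and entered the test through Wnk1d/d, so it had to differ, and its log2 fold change was 1.78 with a pseudocount of 0.1. Its adjusted p by limma was 0.074 without a filter and 0.056 with library weights, and its call was also lost without Wnk1f/f replicate 2 (0.057), Wnk1d/d replicate 3 (0.055) or Wnk1d/d replicate 1 (0.050). *Car12*, a membrane carbonic anhydrase, had 120 ± 27.2 FPKM (SD, n = 4) and 207 ± 37.3 FPKM (SD, n = 5) (log2 fold change 0.79, SE 0.18, adjusted p = 0.017 by limma). Without a filter the calls of *Car2* and *Car12* were lost (adjusted p = 0.060 for both by limma), and those of *Car12*, *Ano1* and *Prkar2a* were lost without both replicates numbered 4 (0.079, 0.054 and 0.059).

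*Ano1*, the calcium-activated chloride channel, which smooth muscle also uses, had 31.9, 27.6, 30.1 and 39.5 FPKM in Wnk1f/f and 17.2, 25.1, 15.0, 17.9 and 19.97 FPKM in Wnk1d/d libraries, all below the controls (log2 fold change -0.74, SE 0.15, adjusted p = 0.010 by limma), while the smooth muscle markers were higher. *Slc4a4*, the sodium bicarbonate cotransporter, had 8.42 ± 0.657 FPKM (SD, n = 4) and 4.73 ± 0.698 FPKM (SD, n = 5), also without overlap (log2 fold change -0.72, SE 0.10, adjusted p = 0.0032 by limma). *Slc12a2*, the cotransporter NKCC1 that loads epithelial cells with chloride and a target of the WNK pathway, did not pass, with 31.2 ± 4.89 FPKM (SD, n = 4) and 34.6 ± 2.75 FPKM (SD, n = 5) (limma adjusted p = 0.30). *Slc26a3* was at no more than 0.04 FPKM in any library.

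Of 13 regulators of CFTR, 2 rose, 2 fell and 9 did not pass, where 22.1% of all genes passed. The median log2 fold change of the list was 0.06 (-0.01 with quantile normalization). *Slc9a3r1*, the PDZ scaffold that anchors CFTR at the apical membrane, rose from 29.9 ± 2.91 FPKM (SD, n = 4) to 46.7 ± 6.68 FPKM (SD, n = 5) without overlap (log2 fold change 0.62, SE 0.11, adjusted p = 0.0069 by limma). *Prkar2a*, a regulatory subunit of protein kinase A, rose from 16.7 ± 2.83 FPKM (SD, n = 4) to 25.8 ± 2.99 FPKM (SD, n = 5) (log2 fold change 0.60, SE 0.12, adjusted p = 0.0099 by limma), and the catalytic subunits *Prkaca* and *Prkacb* did not pass (limma adjusted p = 0.74 and 0.56). *Vipr1*, a receptor for vasoactive intestinal peptide that raises cAMP, fell from 1.80 ± 0.291 FPKM (SD, n = 4) to 1.08 ± 0.299 FPKM (SD, n = 5) (log2 fold change -0.43, SE 0.13, adjusted p = 0.042 by limma), a call kept in 3 of 9 fits that left out a library and lost with quantile normalization. *Adcy6*, an adenylyl cyclase named after its values were seen, fell by a smaller ratio of 0.736 (limma adjusted p = 0.0074).

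Among the genes listed for potassium channels, sodium-proton exchange and pump-associated proteins, values are given for those that passed and were at least 1.5 times different. *Fxyd3*, a pump-associated protein, had 517 ± 117 FPKM (SD, n = 4) and 779 ± 98.5 FPKM (SD, n = 5) (log2 fold change 0.61, SE 0.16, adjusted p = 0.027 by limma), which was not called with quantile normalization (adjusted p = 0.15) and was called in 4 of 9 fits that left out a library. *Slc9a2*, the sodium-proton exchanger NHE2 of apical membranes, had 1.37, 1.74, 1.10 and 0.73 FPKM in Wnk1f/f and 0.15, 0.29, 0.14, 0.29 and 0.27 FPKM in Wnk1d/d libraries, lower in all Wnk1d/d libraries (mean 1.24 against 0.228 FPKM, log2 fold change -0.85, SE 0.14, adjusted p = 0.0065 by limma), and it entered the test through its control mean alone. With a pseudocount of 0.01 the log2 fold change of *Slc9a2* was -2.39, and with a filter on the mean of all libraries the gene was not among those tested. The other apical exchanger, *Slc9a3* (NHE3), was at no more than 0.05 FPKM. Over all 6 lists without the 7 members, 18 of 54 tested genes passed (33.3%, against 22.1% of all genes), 10 upward and 8 downward. Of those that passed, *Slc26a9* and *Slc9a2* entered the test through their high group. The lists were also chosen with earlier results of these data known, so nothing is read from this count.

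**Figure D4:**
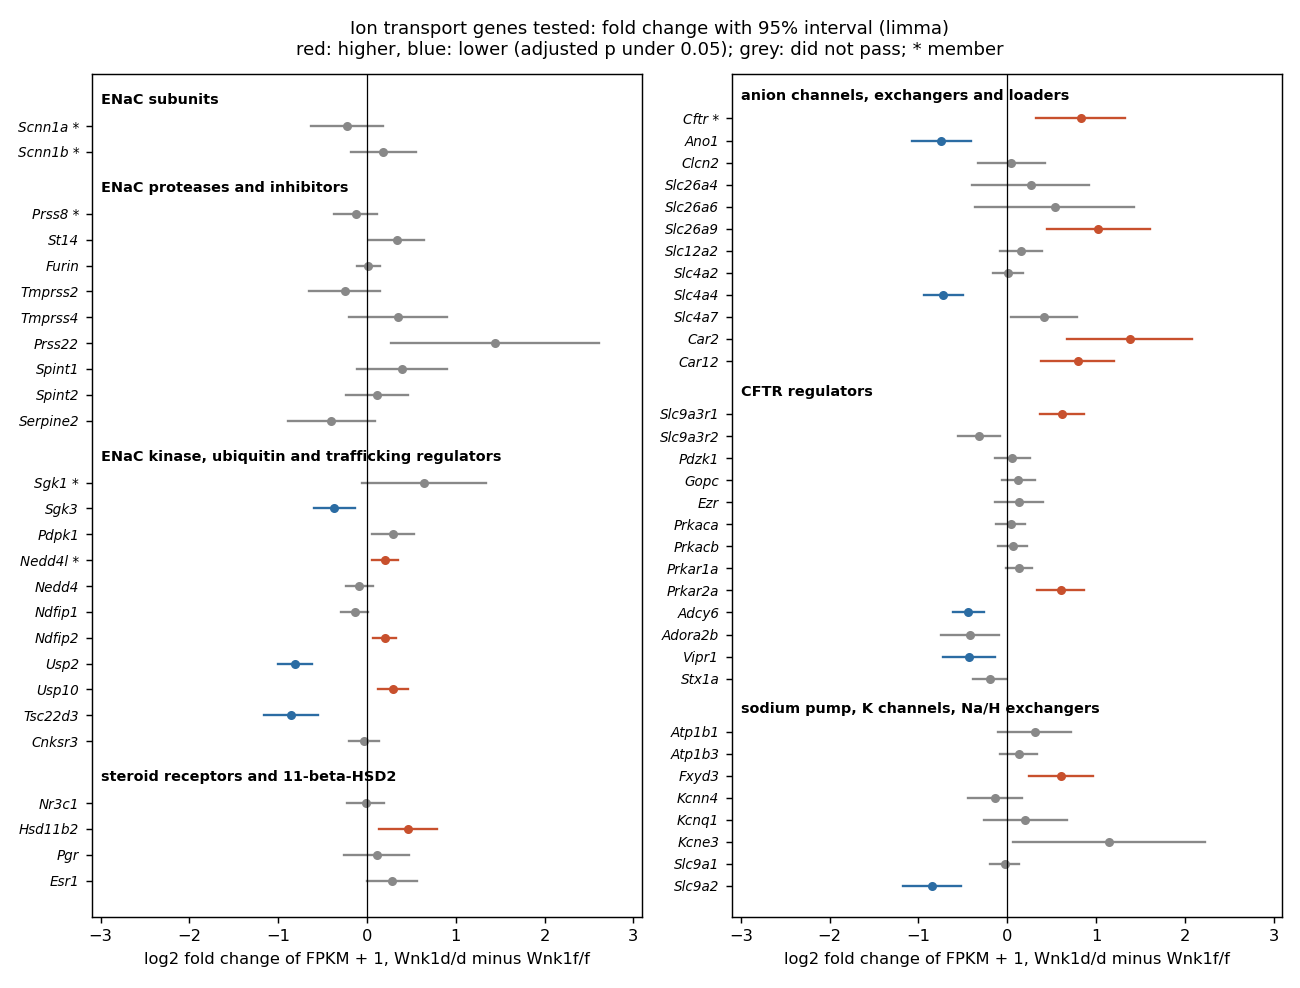
Log2 fold change of FPKM + 1 (Wnk1d/d minus Wnk1f/f, horizontal axis) with its 95% interval from limma for tested genes of the ion transport lists, members starred, red or blue where the adjusted p was under 0.05 and grey otherwise. Both tested ENaC subunits and all ENaC proteases are grey, and *Car2* (1.38), *Slc26a9* (1.02) and *Cftr* (0.83) are red.

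Across the 9 libraries the members did not move as 1 group. *Scnn1a* and *Prss8* had a Pearson r of 0.78 over the libraries and 0.74 after centring on genotype means, *Scnn1a* and *Scnn1b* 0.49 and 0.74, *Cftr* and *Scnn1a* -0.01 and 0.52, and *Cftr* and *Sgk1* 0.38 and -0.12. The tested genes whose pattern was most like that of *Cftr* were *Cideb* (r = 0.98), *Nfkbiz* (0.97) and *Car2* (0.97), with 0.95, 0.95 and 0.92 after centring. For *Sgk1* they were *Blzf1*, *Plekha3* and *Galnt3* (r = 0.95, 0.91 and 0.88), for *Scnn1a* *Anxa11*, *8430419L09Rik* and *Pdzk1ip1* (0.95, 0.94 and 0.94), for *Scnn1b* *AI429214*, *Klhl15* and *Catsperd* (0.91, 0.90 and 0.89), for *Prss8* *Fndc5*, *Lxn* and *Wfdc13* (0.94, 0.94 and 0.91), and for *Nedd4l* *Slc10a7*, *Psrc1* and *Iqgap3* (0.99, 0.96 and 0.96). With 9 libraries that share genotype and tissue composition, and 14728 genes to choose from, such values describe these libraries and carry no p.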

How the data were processed

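RNA of whole uterus from 4 Wnk1f/f and 5 Wnk1d/d mice was sequenced in paired-end libraries, 1 per mouse. The authors filtered reads by quality, aligned them to mm10 with TopHat2 2.0.4 and computed FPKM with Cufflinks 2.0.2 (versions per the submitters' processing notes), and the deposited table holds FPKM rounded to 0.01 for 31274 gene symbols, with no counts. The gene annotation behind it is not given in the sources used here.

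Samples were grouped by their titles. log2(FPKM + 1) was fitted with limma 3.58.1 in R 4.3.3 (trend, genotype as the only term, Benjamini-Hochberg over 14728 genes), and single genes were also compared by exact two-sided permutation of the difference in means over all 126 splits (SciPy 1.17.1). The limma step was tested on simulated data with 200 of 14728 genes changed by 1.5 on the log2 scale. Of these 93% were recovered, and 6.06% of calls were false. With no gene changed, 0 were called. The changes were larger than those of the members and were placed only in genes above a level that *Cftr* does not reach. The simulation therefore does not cover the calls of the members. Named genes are the 7 members, list genes with an adjusted p under 0.05 whose mean FPKM differed 1.5 times or more, and the 3 genes most like each tested member. Members and lists were chosen with earlier results of these data known. The alternatives were pseudocounts, filters, scalings, limma settings, a replicate block and leaving out libraries. Gene coordinates are from GENCODE release M21 on mm10, and promoters from RefSeq on GRCm38.p6. FPKM corrects for length and depth, and absolute amounts of RNA were not measured. Protein sequences were not used here. 1 gene of the lists, counted in the totals, is not reported here.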

Additional observations from a re-analysis of the deposited data

Results flagged for a closer look

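Of 40 groups of libraries (20 named genes in each genotype), 2 held a value farther from the others than Dixon's 95% criterion allows, where chance gives about 1 in 20. *Nedd4l* was at 16.2 FPKM in Wnk1d/d replicate 1, below the 17.7 to 18.1 FPKM of the other Wnk1d/d libraries and within the control range. *Car12* was at 140.7 FPKM in Wnk1d/d replicate 1, below 220 to 228 FPKM in the other Wnk1d/d libraries, and this was the library with the highest *Car2* and *Cftr*.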

How the results depend on the processing

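*Cftr* kept its direction in all 21 alternatives and its call in 13. The log2 fold change was 0.83 without a filter, 0.66 with library weights, 0.96 with the replicate block and 0.46 relative to epithelial markers, all with an adjusted p above 0.05 (up to 0.21), 1.004 without both replicates numbered 4 (chosen after seeing the data), with its call, and 0.69 to 0.96 when each library was left out. *Nedd4l* kept its call in 9 of 22 alternatives. Its log2 fold change was 0.22 with a pseudocount of 0.01, 0.20 without a filter, without trend and with the block, 0.17 without both replicates 4 and 0.17 to 0.24 when each library was left out, and relative to epithelial markers it was -0.16 and that of *Scnn1b* -0.18. That scaling takes 0.37 from every gene (median of all genes -0.36), so any smaller rise changes sign by construction and nothing is read from it for these genes. *Scnn1a*, *Sgk1* and *Prss8* passed in no alternative, and *Scnn1g* was tested only without the filter. Of the members, 2 passed, against 1 with the fold criterion, with a pseudocount of 0.01, with a filter at 5 FPKM, without trend, with library weights or without both replicates 4, 0 without a filter or with the block (2 at an unadjusted p under 0.05 by limma in each), and 0 to 2 when each library was left out. The filter at 5 FPKM left 4 members to test, without *Cftr*, and *Nedd4l* passed there (limma adjusted p = 0.039). Genes called numbered 3249 over the whole table, 1513 with the fold criterion, 1799 without a filter, 1142 without both replicates 4, and 1739 to 4216 when each library was left out. The *Cftr* to ENaC log2 ratio differed by 0.82, by 1.26 and 1.34 with pseudocounts of 0.1 and 0.01, and by 0.72 to 0.93 when each library was left out.

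Replicate numbers are shared by the genotypes but name different mice. Deviations of same-numbered libraries correlated at -0.27 to 0.02, so the numbers do not pair the samples, and a replicate block left 220 genes called. Wnk1d/d replicate 5 is alone in its block, so the block gives the same fold changes as the fit without that library (0.96 for *Cftr* in both). The block is therefore not a separate check of the calls. *Tsc22d3* and *Usp2* kept their call in all 21 alternatives, and of the list genes named they alone kept it with the block. The cause of these differences was not tested. FPKM without counts gives no interval for the low levels of *Cftr*, *Slc26a9* and *Scnn1g*.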
